A study of Mus musculus with 24 samples.

Results

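The levels of 10 genes of secreted muscle and inflammatory signals and their receptors were followed in mouse calf muscle after a muscle pain procedure: the interleukin-6 (IL-6) family genes Il6, Lif, Osm, Il6ra, Osmr and Il6st, and the myokine genes Il15, Fndc5, Metrnl and Erfe. The 10 genes were taken by name from the 54532 genes of the deposited count tables, with earlier results of these data known. Each was found by its Ensembl identifier. RNA of the left gastrocnemius of wild-type C57/BL6 mice was sequenced in 24 libraries, 4 in each of 6 groups made of 2 sexes and 3 conditions, at a labelled time of 24 h. The controls were sedentary and had 2 injections of 20 µl saline at pH 7.2 ± 0.1, 5 days apart. Sedentary pain mice had 2 injections of the same volume and spacing at pH 5.0 ± 0.1, the second after the muscle had been made to contract by electrical stimulation for 6 min. Active pain mice had running wheels for 8 weeks and then the same acid and contraction. No control muscle was made to contract, so acid and contraction cannot be told apart. Running was compared between the 2 pain groups only, since no group ran without the pain procedure. Ages are not given in the sources used here.

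IL-6, leukaemia inhibitory factor (Lif) and oncostatin M (Osm) are related cytokines that all signal through gp130, the shared receptor chain encoded by Il6st. IL-6 needs its own receptor chain (Il6ra), in the membrane or shed from leukocytes and other cells, whereas oncostatin M pairs gp130 with Osmr. The receptors activate Janus kinases and the transcription factor STAT3, whose targets include the feedback inhibitor Socs3 and acute-phase genes. Contracting muscle releases IL-6, and infiltrating leukocytes make IL-6 and oncostatin M. Myokines are proteins that muscle secretes: Fndc5 encodes the precursor of irisin, Metrnl encodes meteorin-like, Il15 encodes interleukin-15 and Erfe encodes erythroferrone, which lowers hepcidin and is also called myonectin.

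The stretches just before the starts of Il6, Il6ra, Metrnl and Fndc5 are shown because these genes carry the main differences and their promoters differ in composition and motifs. They run from base 250 to base 21 before the RefSeq start (GRCm38.p6), 230 bases each, 5′ to 3′ on the gene's strand. GENCODE places the start of Metrnl further upstream, so its stretch lies inside the gene as GENCODE gives it. Capitals mark matches to 6 motifs: STAT (TTCNNNGAA), kappa B, AP-1 (TGANTCA), an E-box (CAGCTG) and a nuclear receptor half-site (AAGGTCA), each on both strands, and a TATA box (TATAAA) on the gene's strand. Il6 lies at chr5:30012864-30013093 on the plus strand, Il6ra at chr3:89913217-89913446 on the minus strand, Metrnl at chr11:121702177-121702406 on the plus strand and Fndc5 at chr4:129136749-129136978 on the plus strand.
Il6: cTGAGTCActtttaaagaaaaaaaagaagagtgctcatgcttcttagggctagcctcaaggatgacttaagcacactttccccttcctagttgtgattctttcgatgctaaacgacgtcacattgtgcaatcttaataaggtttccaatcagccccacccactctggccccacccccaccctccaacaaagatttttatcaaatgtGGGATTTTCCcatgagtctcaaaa
Il6ra: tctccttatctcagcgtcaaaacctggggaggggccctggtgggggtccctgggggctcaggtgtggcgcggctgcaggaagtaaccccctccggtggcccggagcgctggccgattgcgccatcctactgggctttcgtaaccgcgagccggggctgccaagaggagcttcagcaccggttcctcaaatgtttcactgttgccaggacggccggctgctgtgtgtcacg
Metrnl: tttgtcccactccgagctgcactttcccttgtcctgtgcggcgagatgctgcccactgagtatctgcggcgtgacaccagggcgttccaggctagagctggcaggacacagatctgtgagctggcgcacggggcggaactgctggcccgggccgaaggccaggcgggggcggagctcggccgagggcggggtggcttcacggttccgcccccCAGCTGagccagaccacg
Fndc5: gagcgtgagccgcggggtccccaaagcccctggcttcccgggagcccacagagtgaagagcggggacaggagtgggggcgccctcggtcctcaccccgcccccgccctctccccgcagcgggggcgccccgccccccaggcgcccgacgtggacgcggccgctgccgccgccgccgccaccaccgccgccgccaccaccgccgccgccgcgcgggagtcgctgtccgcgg

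The Il6 stretch held the kappa B match GGGATTTTCC, starting 44 bases before the start of the gene, and an AP-1 match starting 249 bases before it. Of the 32851 promoters of the same length in the table, 1.22% held the kappa B motif and 6.34% the AP-1 motif. The Metrnl stretch held 1 E-box, 38 bases before the start, a motif found in 11.8% of promoters. No match to the 6 motifs was found in these windows of Il6ra and Fndc5. The Fndc5 stretch was 81.7% G or C and the Il6 stretch 43.5%, against a median of 51.7% over all promoters. RefSeq promoters were matched for 8 of the 10 genes, not for Osm and Il15. Lif held an AP-1 and an E-box match that adjoin, and those of Il6st, Osmr and Erfe held none. The shares of promoters with the STAT motif, the TATA box and the half-site were 6.48%, 7.19% and 3.82%, and none of the 8 windows held one.

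Total counts were 17612139 to 34039699 per library. Levels are given as CPM, counts scaled to library size and further by the trimmed mean of M-values (TMM). The first principal component (57.4% of the variance) placed male sedentary pain replicate 1 at 93.3, with the other 3 of its group between -51.02 and -26.1, and male active pain replicate 2 at 50.5, with the other 3 between -42.1 and -6.16. Female active pain replicate 3 was at 50.8, with the other 3 of its group between -18.0 and 7.07. Female sedentary pain replicate 1, at 28.6, was the closest of its group to the female controls. Differences that rest on these libraries are given with and without them. The myofibre markers (Acta1, Ckm and 8 others) summed to between 106756 and 236940 CPM in every library. The labels do not say whether a replicate number marks anything shared, so p-values measure the spread between these libraries. In whole muscle, fewer cells of a type and less RNA per cell cannot be told apart.

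In females, sedentary pain came with more Metrnl and Il6ra RNA and less Fndc5 RNA than control, and active pain with less Metrnl and Il6ra and more Fndc5 than sedentary pain. The Il6ra and Fndc5 calls against control, and those between the pain groups, were lost in some fits that left out 1 library. With 1 surrogate variable fitted beside the groups, none of these calls held. In males no gene of the 10 passed the test in any comparison between conditions. In the main fit no condition effect on the 10 genes differed by test between the sexes. Il15 was 3.50- to 4.34-fold higher in females than in males under every condition. Tests were edgeR's quasi-likelihood F tests, two-sided, with Benjamini-Hochberg adjustment over all genes tested and a threshold of 0.05.

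Of the 10 genes, 8 passed the low-count filter in each sex. Il6 and Erfe did not in females and Il6 and Osm did not in males. Osm passed in females only through its pain libraries, where it is high, so its call is given as a description. In female sedentary pain against control, 3 of the 8 were called higher, Osm among them, and 1 lower, where 33.5% of the 14511 genes tested were called, 19.6% higher and 13.9% lower. In female active against sedentary pain 1 was called higher and 2 lower, beside 11.9% of all genes (2.51% higher and 9.41% lower). With so large a share of all genes called and 8 genes tested, one of which entered through its own change, the first count does not set these genes apart. In female active pain against control none was called by edgeR, nor was any other gene (0%), although Osm and Metrnl had an unadjusted p under 0.05, as had 1020 of all genes. Of all genes, DESeq2 called 133 there and none of the 10.

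**Figure D1:**
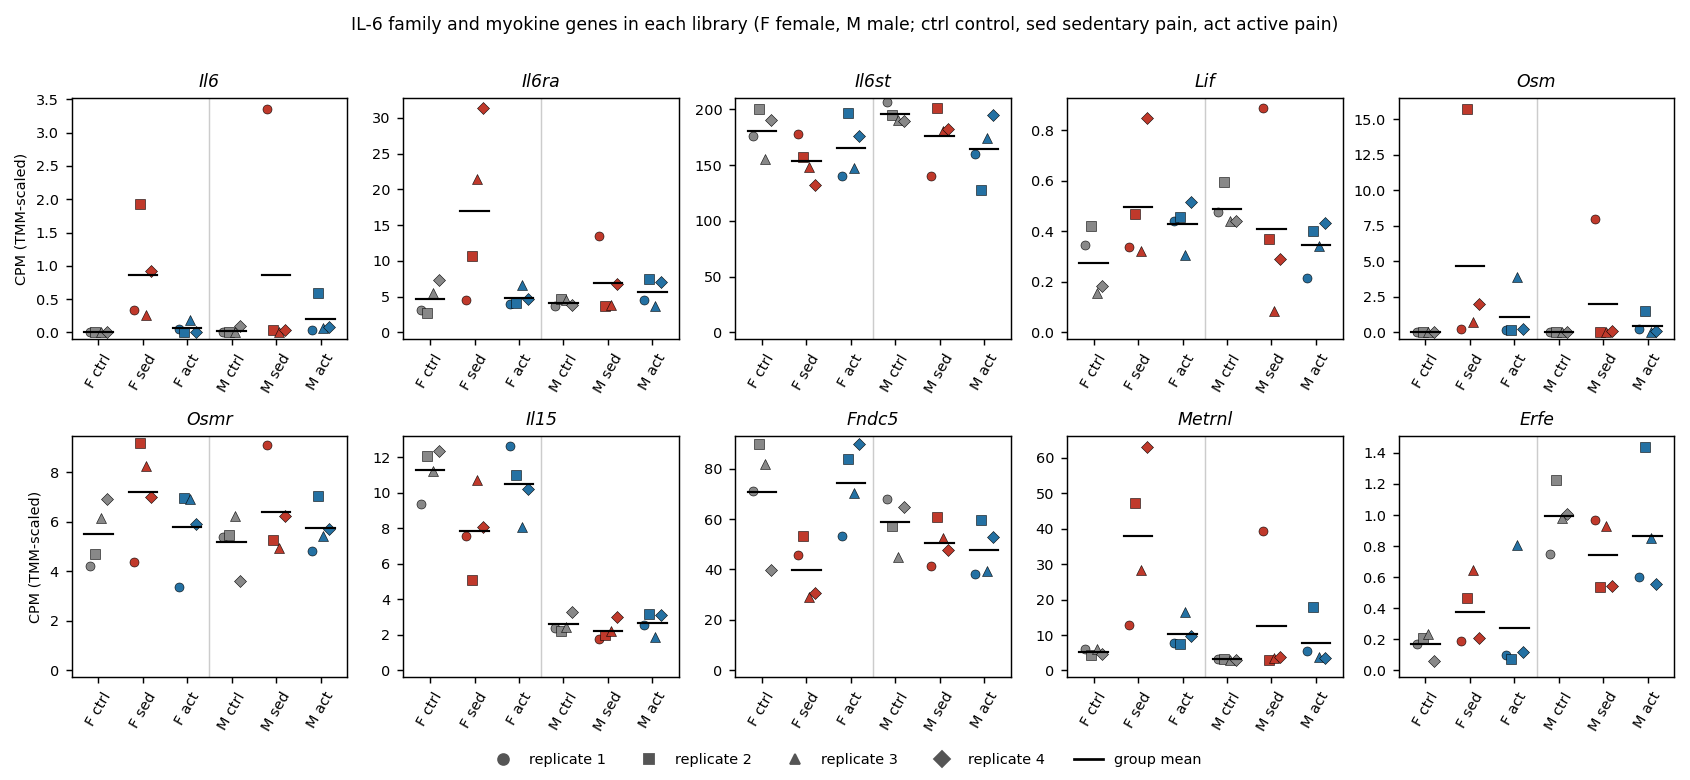
CPM of the 10 genes in each of the 24 libraries, by group, with the replicate number as the symbol and the group mean as a line. Metrnl and Il6ra are highest in female sedentary pain, male sedentary pain replicate 1 stands above its group for Il6, Osm and Metrnl, and Il15 lies between 5.08 and 12.6 in females and between 1.78 and 3.30 in males.

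Il6 (chromosome 5, 30013114 to 30019981, plus strand, GENCODE M21 on GRCm38) encodes IL-6 itself. It had 0 counts in all 4 female controls, and 0.340, 1.93, 0.259 and 0.919 CPM in replicates 1 to 4 of female sedentary pain. Female active pain had 0.0490, 0, 0.193 and 0 CPM. Every female sedentary pain library was thus above every other female library. The sedentary pain mean of 0.861 ± 0.769 CPM (SD, n = 4) was at least 7.41-fold higher than the limit that 3 counts per control library allow (0.116 CPM), and at least 4.35-fold higher without replicate 2. The exact two-sided permutation test gave p = 0.0286 against control and against active pain, the smallest that 4 against 4 libraries allow, and 0.114 after adjustment over the 12 such tests. DESeq2, which ran without that filter, called Il6 in both comparisons. In males the control libraries had 0, 0, 0 and 0.0944 CPM, and the sedentary pain libraries 3.35, 0.0335, 0 and 0.0364. Male active pain had 0.0431, 0.600, 0.0684 and 0.0791 CPM. The male values were high only in the 2 libraries that stand apart, and 83 of the 85 sedentary pain reads came from replicate 1. The ratio of male sedentary pain to control was 31.9 (95% exact interval 10.6 to 158, counting error only) with that library and 0.980 (0.0819 to 8.56) without it.

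Osm (chromosome 11, 4236420 to 4241026, plus strand) encodes oncostatin M, which macrophages, neutrophils and T cells secrete. Its levels were 0.0433, 0, 0 and 0.0611 CPM in female controls and 0.265, 15.7, 0.713 and 2.01 CPM in female sedentary pain. Female active pain libraries had 0.147, 0.141, 3.93 and 0.243 CPM. All 8 female pain libraries were above all 4 controls, with replicate 2 of sedentary pain and replicate 3 of active pain far above the others. Reads numbered 355 in sedentary pain and 3 in controls, a ratio of 121 (95% exact interval 41.1 to 590, counting error only), and 35.2 (11.7 to 174) without replicate 2. The edgeR adjusted p of 0.0167 (0.0456 without replicate 2) adds no support, since Osm entered that test through the libraries where it is high. In female active pain the ratio to control was 38.1 (12.7 to 188), or 6.44 (1.82 to 34.7) without replicate 3, and the edgeR test did not pass (adjusted p = 0.624). In female active against sedentary pain Osm was at log2 -2.02 (edgeR adjusted p = 0.274). Without female active pain replicate 3 it was at log2 -4.66 (0.0494), which adds no support for the same reason. In males only 1 control read was counted. Male sedentary pain had 7.96, 0, 0 and 0.0728 CPM and male active pain 0.215, 1.52, 0.0684 and 0.0791. The ratio of male sedentary pain to control was 224 (39.8 to 8898), and 2.94 (0.153 to 174) without replicate 1. Each male active pain library was above each control, with p = 0.0286 in the exact permutation test (adjusted 0.114 over 12 tests).

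Lif (chromosome 11, 4257557 to 4272514), the neighbour of Osm on the same strand with 16530 bases between them, encodes leukaemia inhibitory factor, which acts on muscle precursor cells. It was low in every group, with 2 to 24 reads per library. Female controls had 0.347, 0.421, 0.156 and 0.183 CPM. The sedentary pain females had 0.340, 0.467, 0.324 and 0.848 CPM, and those with wheels 0.441, 0.459, 0.308 and 0.517. The female groups overlapped, with a log2 fold change in sedentary pain of 0.84 ± 0.42 (SE) that did not pass (edgeR, adjusted p = 0.132). In males active pain (0.215 to 0.435 CPM) lay below control (0.440 to 0.594 CPM) in all libraries, with an adjusted p of 0.648 by edgeR.

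Il6ra (chromosome 3, 89864059 to 89913196, minus strand) encodes the IL-6-binding receptor chain. Female controls had 3.16, 2.78, 5.55 and 7.40 CPM and female sedentary pain 4.58, 10.6, 21.5 and 31.3. Female active pain had 3.97, 4.06, 6.59 and 4.62 CPM. Replicates 2, 3 and 4 of sedentary pain were above all controls, and replicate 1 was within the control range. Il6ra was called 3.54-fold higher in female sedentary pain than in control (log2 1.82 ± 0.51 SE, edgeR adjusted p = 0.0206). It was 3.49-fold lower in active than in sedentary pain (adjusted p = 0.0422), and active pain differed little from control (log2 0.02 ± 0.50). The call against control was lost without female control replicate 1, without female control replicate 2 and without female sedentary pain replicate 4 (log2 1.37, adjusted p = 0.0667 for the last). It was also lost in replicates 1 and 2 alone (log2 1.34, adjusted p = 0.151). With 1 surrogate variable the direction turned, to log2 -0.50 against control and 0.19 in active against sedentary pain. Males had 3.75, 4.62, 4.48 and 3.78 CPM in control, 13.4, 3.68, 3.89 and 6.81 in sedentary pain, then 4.48, 7.40, 3.69 and 7.04 in active pain. The male groups overlapped, and the log2 difference of sedentary pain from control was 0.76 ± 0.39 (adjusted p = 0.601), or 0.23 without replicate 1. An antisense gene that overlaps 242 exonic bases of Il6ra had at most 4 reads in a library.

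Osmr (chromosome 15, 6813577 to 6874969, minus strand), the oncostatin M receptor chain, had group means between 5.18 and 7.20 CPM. Its highest libraries were female sedentary pain replicate 2 (9.17 CPM) and male sedentary pain replicate 1 (9.09 CPM), which also had the most Osm. No comparison of Osmr passed, and the difference in female sedentary pain was log2 0.37 ± 0.28 (SE, edgeR adjusted p = 0.313). Il6st (chromosome 13, 112464070 to 112510086, plus strand), the gp130 chain that every ligand here of the IL-6 family needs, was the most abundant of the 10 in CPM. It ranged from 132 to 200 CPM in females and from 128 to 206 CPM in males, and no comparison of it passed in the main fits. Without the 2 male libraries that stand apart, Il6st was called lower in female than in male sedentary pain (log2 -0.36, edgeR adjusted p = 0.0364). Its fitted difference in female sedentary pain was log2 -0.24 ± 0.15 (adjusted p = 0.205), and the 3 female groups overlapped.

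**Figure D2:**
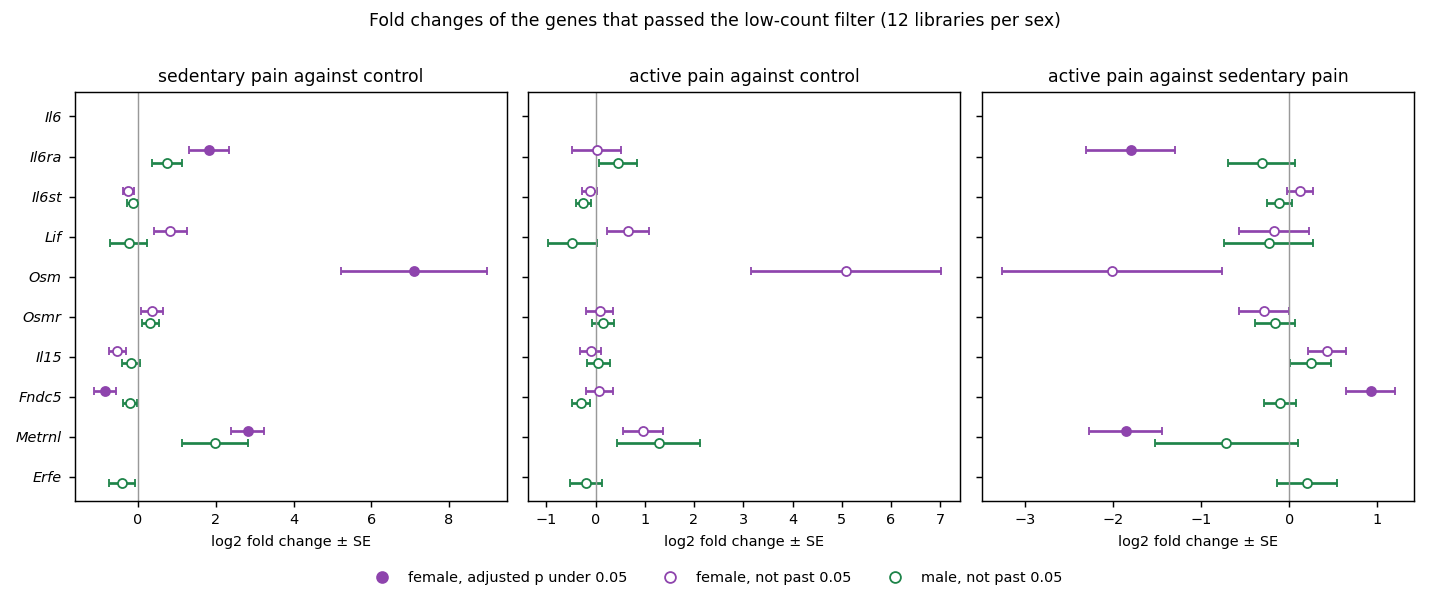
Log2 fold changes ± SE of the genes that passed the low-count filter, in 3 comparisons within each sex, filled where the adjusted p was under 0.05. Filled points are Il6ra, Osm, Metrnl and Fndc5 for female sedentary pain against control, and Il6ra, Metrnl and Fndc5 for female active against sedentary pain.

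Metrnl (chromosome 11, 121701544 to 121716306, plus strand) encodes meteorin-like, a protein secreted by muscle, fat and activated macrophages and known for effects on energy use and muscle repair. Female controls had 5.94, 4.50, 6.05 and 4.59 CPM, sedentary pain 13, 47.1, 28.2 and 63.2 and active pain 7.64, 7.45, 16.4 and 9.64. Both pain groups lay above the controls with no overlap, and replicate 3 of active pain was above replicate 1 of sedentary pain. The rise in sedentary pain was 7.08-fold (log2 2.82 ± 0.43 SE, edgeR adjusted p = 0.0026), and it was called in each fit that left out 1 of the 12 female libraries. With 1 surrogate variable it was log2 1.25 (adjusted p = 0.239). Active pain was 3.63-fold lower than sedentary pain (log2 -1.86, adjusted p = 0.0328), a call lost in the fit of all 24 libraries (-1.88, 0.066) and with 1 surrogate variable (-0.60, 1). Active pain against control, at log2 0.96 ± 0.41, did not pass (adjusted p = 0.677).

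In males Metrnl had 3.34, 3.36, 3.05 and 2.93 CPM in control, 39.4, 3.08, 3.51 and 3.89 in sedentary pain, then 5.43, 18.0, 3.76 and 3.64 in active pain. Each male active pain library was above each control, and in sedentary pain only replicate 1 was far above the control range. The log2 difference of male sedentary pain from control was 1.99 ± 0.85 (edgeR adjusted p = 0.531), and 0.16 without replicate 1. Across all genes the CPM ranges of 2 groups did not overlap for 26.3% in female sedentary pain against control, 5.44% in female active pain against control and 11.8% in female active against sedentary pain. In males these shares were 8.07%, 10.4% and 0.646%. Among the 8 genes tested per sex, they were Osm and Metrnl in both female comparisons with control, Fndc5 between the female pain groups, and Lif and Metrnl in male active pain against control.

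Fndc5 (chromosome 4, 129136999 to 129144593, plus strand) encodes the membrane protein from which irisin is cut, and is a known target of the exercise coactivator Ppargc1a. Female controls had 71.3, 89.9, 81.8 and 39.9 CPM, sedentary pain 45.7, 53.3, 29.1 and 30.8, and active pain 53.5, 83.9, 70.1 and 89.7. The 3 highest control libraries were above all sedentary pain libraries, control replicate 4 was among them, and the lowest active pain library was just above the highest sedentary one. Fndc5 was 1.80-fold lower in sedentary pain than in control (log2 -0.85 ± 0.28 SE, edgeR adjusted p = 0.035). It was 1.90-fold higher in active than in sedentary pain (adjusted p = 0.049). That adjusted p was 0.0519 with the scaling of relative log expression and 0.0504 with a replicate block. Active pain against control was at log2 0.07 ± 0.27 (adjusted p = 0.947). With 1 surrogate variable the differences were log2 -0.31 from control (adjusted p = 0.895) and 0.49 between the pain groups (adjusted p = 1). The call against control was lost without female control replicate 1, 2 or 3 and without female sedentary pain replicate 3 or 4. Male levels were 44.8 to 68.1 CPM in control, 41.4 to 61.0 in sedentary pain and 38.2 to 59.8 in active pain, with no call. The same libraries with the lowest Fndc5, female sedentary pain replicates 3 and 4, had the lowest myofibre marker sums of the group (111701 and 106756 CPM, against 168303 and 209338 in replicates 1 and 2). The part of the markers in the result was not tested.

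The 3 female calls between active and sedentary pain were all lost without female active pain replicate 1, 2 or 4 or female sedentary pain replicate 3 or 4. Without female control replicate 1 or 3, Metrnl alone was called. The direction of Il6ra, Metrnl and Fndc5 was the same in each of the 12 fits that left out 1 library. The numbers in the library names split replicates 1 and 2 from replicates 3 and 4, and what the split marks is not given in the sources used here. Within it, the female difference of sedentary pain from control for Metrnl was log2 2.51 in replicates 1 and 2 (edgeR adjusted p = 0.0813) and 3.10 in replicates 3 and 4 (0.00474). For Il6ra it was 1.34 (0.151) and 2.02 (0.00474), and for Fndc5 -0.71 (0.206) and -1.03 (0.0737). Osm was tested in replicates 3 and 4, at 5.15 (0.0796).

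Il15 (chromosome 8, 82331632 to 82403222, minus strand) encodes interleukin-15, a cytokine that sustains natural killer and memory T cells and that muscle makes. Female levels were 9.36, 12.1, 11.2 and 12.3 CPM in control, 7.56, 5.08, 10.7 and 8.06 in sedentary pain, then 12.6, 11, 8.09 and 10.2 in active pain. Male levels were 2.39, 2.20, 2.44 and 3.30 CPM in control, 1.78, 1.97, 2.24 and 2.98 in sedentary pain, then 2.54, 3.20, 1.88 and 3.13 in active pain. The lowest female library was above the highest male library. Control females were 4.34-fold above control males (log2 2.12 ± 0.23 SE, edgeR adjusted p = 6.65e-06), where 2.83% of 15103 genes were called. The 7 adipocyte markers had a median log2 difference of 2.23 in the same comparison (1 of them called higher), with sums of 4570 to 8319 CPM in control females and 2537 to 3202 in control males. In sedentary pain their median was 0.091, with sums of 1466 to 3866 CPM in females and 1185 to 2751 in males, and in active pain 0.14, with 3194 to 4515 in females and 1400 to 2833 in males. Their part in the result was not tested. The comparisons of the sexes within the pain groups were added after the control levels had been seen. They gave 3.50-fold in sedentary pain (adjusted p = 3.35e-05, 24.2% of genes called) and 3.90-fold in active pain (adjusted p = 1.68e-05, 1.44% of genes called). Within females sedentary pain was log2 -0.53 ± 0.21 from control, which did not pass (adjusted p = 0.0716), and replicate 3 of sedentary pain was within the control range. Without that replicate Il15 was called lower (log2 -0.70, adjusted p = 0.0287).

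Erfe (chromosome 1, 91366430 to 91374217, plus strand), whose product links red cell production and muscle to iron and lipid handling, was higher in males than in females in each group mean. Male controls had 0.751, 1.22, 0.984 and 1.01 CPM and female controls 0.173, 0.210, 0.234 and 0.0611. Each male control was above each female control, and the fitted female level was 5.84-fold lower (log2 -2.55 ± 0.61 SE). Erfe entered the fit of all 24 libraries through the males, where it is high, so the edgeR adjusted p of 0.0236 is a description and adds no support. It rose above 0.05 in 4 of the 24 fits that left out 1 library, those without female control replicate 3 or 4 or male control replicate 2 or 4. In replicates 1 and 2 the difference was log2 -2.30 (adjusted p = 0.639) and in replicates 3 and 4 it was -2.81 (0.103). Females had 2 to 21 reads per library. In pain, female levels were 0.189, 0.467, 0.649 and 0.212 CPM (sedentary) and 0.0980, 0.0706, 0.809 and 0.122 CPM (active), and male levels 0.536 to 1.44 CPM. The ranges of the sexes overlapped in both pain groups, and neither difference passed (adjusted p = 0.194 and 0.226). Without female active pain replicate 3, the female minus male difference of Erfe in active pain was log2 -3.09 (adjusted p = 0.00263). Erfe shares 357 exonic bases with Ilkap on the opposite strand, and whether the counting used strand is not given in the sources used here. Ilkap had group means of 36.1 to 44.6 CPM and did not differ by test between control females and males (log2 0.13, adjusted p = 0.671).

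Whether the condition effects differed between the sexes was tested as an interaction over the 24 libraries. By edgeR none of the 10 genes passed and none of all 15103 did for sedentary pain (0%), active pain (0%) or active against sedentary pain (0%). Unadjusted, 1446, 307 and 2224 genes had p under 0.05, and DESeq2 called 21, 3 and 108 genes, none of them among the 10. The nearest of the 10 were Fndc5 and Il6ra for active against sedentary pain. The female minus male difference for Fndc5 was log2 1.0 ± 0.34 (edgeR adjusted p = 0.235), and for Il6ra it was log2 -1.53 ± 0.66 (adjusted p = 0.303). Without male sedentary pain replicate 1, Il6 (adjusted p = 0.0269), Il6ra (0.0369), Fndc5 (0.0456) and Metrnl (0.0228) passed this interaction test. Il6 entered that fit through the pain libraries where it is high, so its value is a description. Male sedentary pain replicate 1 had the highest Il6, Il6ra and Metrnl and the lowest Fndc5 of its group. Leaving it out thus favours a difference between the sexes, and all fits without it are given as a description. Without both male libraries that stand apart Il6 was not tested and the other 3 did not pass, with 0.0921, 0.0709 and 0.0659 for Il6ra, Fndc5 and Metrnl, and Metrnl passed the interaction for sedentary pain against control (log2 2.65, adjusted p = 0.029).

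Il6ra was also called 2.45-fold higher in female than in male sedentary pain (log2 1.30 ± 0.47 SE, edgeR adjusted p = 0.0489), a call kept in 4 of the 24 fits that left out 1 library. It was lost with a replicate block (adjusted p = 0.0967) and with the library numbers as a batch term (0.076). In replicates 1 and 2 alone the difference was log2 -0.18. Without male sedentary pain replicate 1, which had the highest Metrnl of its group, Metrnl was called in that comparison beside Il6ra and Il15. Il6 and Osm passed 0.05 there too, but entered the fit through pain libraries where they are high. In males the tests within the sex called none of the 14404 genes in sedentary pain (0%), active pain (0%) or active against sedentary pain (0%). Unadjusted, 1273, 1045 and 121 genes passed 0.05, of which Metrnl, in sedentary pain, was the 1 gene of the 8. DESeq2 called 280, 123 and 0 genes there, and none of the 10.

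Levels can be compared between genes once divided by exon length, as CPM per kilobase. In female controls the order was Fndc5 (25.6 ± 7.93, SD, n = 4), Il6st (16.3 ± 1.75), Il15 (4.97 ± 0.593), Metrnl (3.32 ± 0.530), Il6ra (0.546 ± 0.25) and Osmr (0.453 ± 0.103), followed by Lif, Erfe, Osm and Il6 at or under 0.0636. In female sedentary pain the mean of Metrnl (23.9 ± 13.8 CPM per kilobase) was the highest of the 10, above Fndc5 (14.4 ± 4.25) and Il6st (13.9 ± 1.72), with a spread that covers both. The Osm mean (2.06 ± 3.25) rested on replicate 2, without which Osm was at 0.997 CPM in place of 4.68, and that of Il6ra was 1.97 ± 1.37. In male controls Il15 was at 1.14 ± 0.217 CPM per kilobase and Metrnl at 2.00 ± 0.135, the reverse of their order in female controls.

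Among the other ligands and receptors of the family, 10 of 15 genes passed the filter in females, and 4 were higher and 2 lower in sedentary pain than in control. Over all genes 19.6% were called higher and 13.9% lower. The median log2 difference of the 10 was 0.50, beside -0.02 over all genes. Leaving out 1 female library gave 3 to 6 higher and 1 to 2 lower. The genes that rose were Ebi3, a subunit of interleukin-27 (log2 4.85, edgeR adjusted p = 0.00609), Il27ra, its receptor (2.68, 0.00629), Clcf1, a cardiotrophin-like cytokine (2.20, 0.0129), and Adam17, the protease that sheds the IL-6 receptor (0.94, 0.0442). Cntfr (log2 -0.75, adjusted p = 0.00934) and Lifr (-0.64, 0.0442), receptor chains for ciliary neurotrophic factor and for Lif, fell. In female active against sedentary pain 3 of the 10 fell, namely Ebi3, Il27ra and Clcf1, and none rose, beside 9.41% of all genes lower. Leaving out 1 female library gave 0 to 5, with 0 without female active pain replicate 1, 2 or 4 or female sedentary pain replicate 3 or 4.

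Of 17 genes of Janus kinase and STAT signalling, 6 were higher and 1 was lower in female sedentary pain, with a median log2 difference of 0.13. That is a share near the 33.5% called over all genes. Socs3, the feedback inhibitor that blocks gp130 signalling, had 2.26 ± 0.316 CPM (SD, n = 4) in controls and 35.6 ± 18.5 in sedentary pain (log2 3.95, edgeR adjusted p = 0.0026). Stat3 rose from 50.9 ± 6.70 to 150 ± 50.2 CPM (log2 1.54, adjusted p = 0.00387). The feedback inhibitor Socs1 rose by log2 4.10, Ptpn2, a phosphatase of this pathway, and the adaptor Grb2 by 1.01 and 0.66, and Stat5b fell by 0.91 on the log2 scale. The kinases Jak1, Jak2 and Tyk2 were not called. In female active against sedentary pain 3 fell, with Socs3 at log2 -2.45 (adjusted p = 0.0328), Socs1 at -4.00 (0.0328) and Ptpn2 at -0.73 (0.0342), and none rose, beside 9.41% of all genes lower. The count was 0 without the same 5 libraries and 7 without female sedentary pain replicate 1.

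Of 25 target genes of the IL-6 family, 22 passed the filter in females, and 16 of them were higher and none lower in sedentary pain, beside 19.6% and 13.9% of all genes, with a median log2 difference of 1.70 against -0.02 over all genes. The metallothionein genes Mt2 (log2 6.04) and Mt1 (4.50), the protease inhibitor Timp1 (6.22) and the monocyte chemokine Ccl2 (6.09) had the smallest adjusted p of the list, 0.00225 for Mt2 and 0.0026 for the other 3. Mt2 went from 5.66 ± 2.20 CPM (SD, n = 4) in controls to 380 ± 267 in sedentary pain and 67.3 ± 48.6 in active pain. Fos, Cebpd, Lrg1, Hp, Hif1a and Il1r1 were not called, and other signals also act on many genes of the list. In female active against sedentary pain 9 of the 22 were lower and none higher, beside 9.41% and 2.51% of all genes, with a median of -1.24. Leaving out 1 female library gave 12 to 18 genes higher against control and 0 to 15 lower between the pain groups. Replicates 1 and 2 alone gave 5 higher and replicates 3 and 4 alone gave 15. In males none of the 22 was called, with a median of 2.04 in sedentary pain (1.40 in active pain), and 10 genes in each lay above control in all libraries, where 8.07% and 10.4% of all genes did not overlap. Without the 2 male libraries that stand apart the medians were 0.53 and 0.79.

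**Figure D3:**
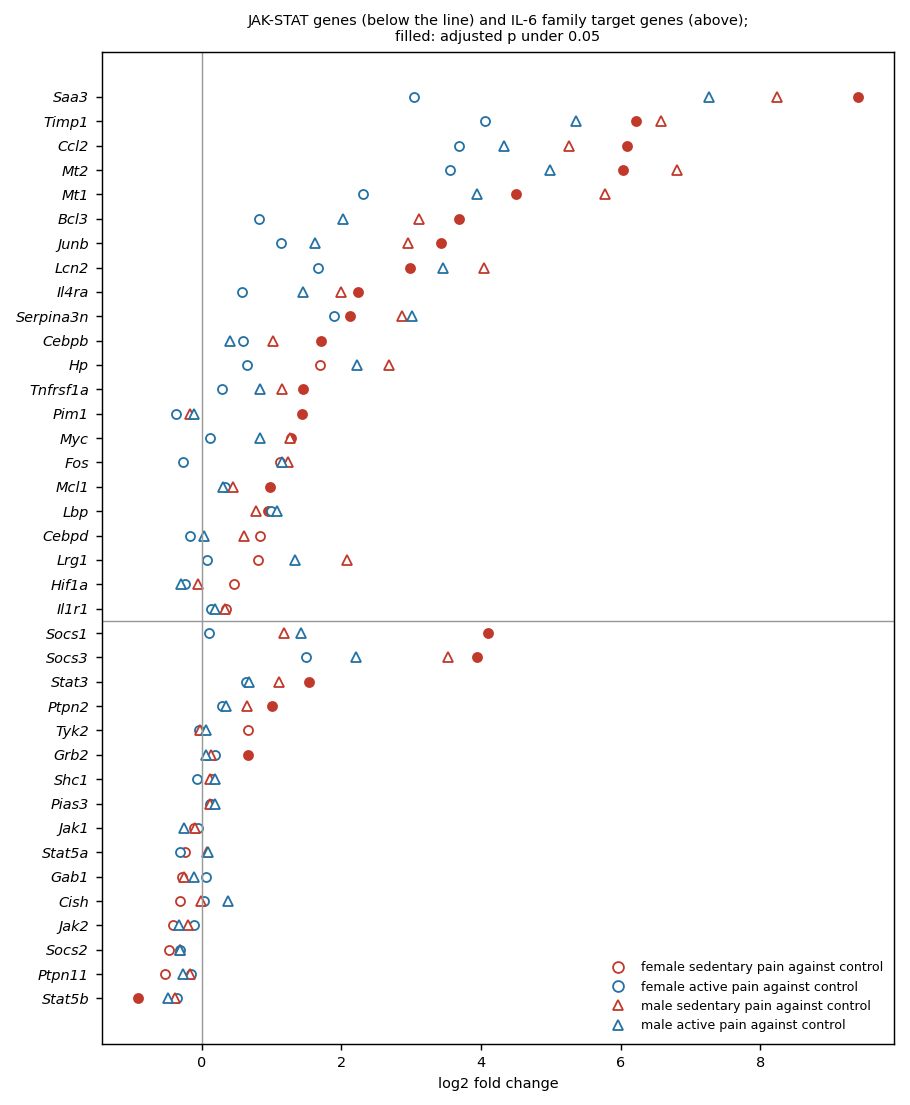
Log2 fold changes against control of 16 of the Janus kinase and STAT genes (below the line) and 22 target genes of the IL-6 family (above it), for both pain groups and sexes, filled where the adjusted p was under 0.05. All filled points are from female sedentary pain, and the open male sedentary pain points for Mt1, Mt2 and Timp1 lie further to the right than the female ones.

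Among 11 other myokine genes tested in females, Gdf15, a stress-induced cytokine, had 0.0997 ± 0.0470 CPM (SD, n = 4) in controls and 6.97 ± 5.41 in sedentary pain. With 1 to 5 reads per control library it entered the test through the pain libraries, so its edgeR adjusted p of 0.00315 is a description. Fstl1, a secreted glycoprotein, rose by log2 1.03 (adjusted p = 0.015), and Mstn, which encodes the growth inhibitor myostatin, fell by 1.39 on the log2 scale (adjusted p = 0.041). The median of the 11 was 0.11. Of 15 paralogues, receptors and regulators of the 4 myokines, 3 rose and 3 fell, again near the 33.5% of all genes, with a median of -0.12. Leaving out 1 female library gave 2 to 3 that rose and 1 to 3 that fell. Il2rg (log2 5.73, adjusted p = 0.00285) and Il2rb (4.70, 0.00811), which encode receptor chains of interleukin-15, and the Fndc5 paralogue Fndc4 (0.84, 0.048) rose. Il15ra, another receptor chain of interleukin-15 in the list, was not among the genes called. Ppargc1a, the coactivator upstream of Fndc5, fell by 0.84 on the log2 scale (adjusted p = 0.0396), and Bmp6 and the iron exporter Slc40a1 fell by 1.06 and 1.12. In female active against sedentary pain the myokine list had 1 gene lower, Gdf15, and the other list 2 higher, Bmp4 and Bmp6, and 2 lower, Il2rb and Il2rg, beside 2.51% of all genes higher and 9.41% lower. All these counts were 0 without female active pain replicate 1, 2 or 4 or female sedentary pain replicate 3 or 4, and the count of 2 higher was 0 or 1 without any 1 female control or without female sedentary pain replicate 2.

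Leukocyte markers moved with the genes that rose. The 12 macrophage and monocyte markers (Adgre1, Cd68, Csf1r and others) summed to 105.6 to 233.7 CPM in female controls, to 511.0, 826.2, 4175 and 5958 CPM in female sedentary pain replicates 1 to 4, and to 268.5 to 512.8 CPM in female active pain. The 8 neutrophil markers (S100a8, S100a9, Cxcr2 and others) summed to 0.898 to 4.80 CPM in female controls, to 21.4, 258.4, 40.1 and 57.4 CPM in female sedentary pain, and to 5.54, 63.5, 113.4 and 6.05 CPM in female active pain. Among males with sedentary pain the neutrophil sum was 300.4 CPM in replicate 1 and 2.62 to 2.71 in the others, and in male active pain 78.9 CPM in replicate 2 and 3.44 to 9.86 in the others. The macrophage and monocyte sum was 71.3 to 156.2 CPM in male controls and 246.0 to 549.5 CPM in male active pain. In male sedentary pain replicates 1 to 4 it was 825.0, 154.5, 237.8 and 513.0 CPM. The share of mitochondrial reads was 8.22%, 3.85%, 5.87% and 2.75% in female sedentary pain replicates 1 to 4 and 8.59% to 11.02% in female controls, and 4.53% in male sedentary pain replicate 1 against 10.4% to 11.3% in the rest of its group. Its part in the differences was not tested. Ly6g, a defining neutrophil marker, was at 0.467 CPM or less in every library. In female sedentary pain 11 of 12 macrophage markers and 5 of the 7 tested neutrophil markers were called higher, beside 19.6% of all genes. The neutrophil count was 3 without replicate 2. Neutrophil markers with almost no reads in controls passed the filter through the pain libraries, so that count is a description.

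Il6ra was highest in the 2 libraries with the largest macrophage sums, female sedentary pain replicates 4 and 3. The same 2 had the largest sums of 8 T and natural killer cell markers, 82.8 and 48.1 CPM, against 4.38 or less elsewhere. The 3 libraries with the most Osm had the 3 largest neutrophil sums, namely female sedentary pain replicate 2 (15.7 CPM of Osm), male sedentary pain replicate 1 (7.96) and female active pain replicate 3 (3.93). Female active pain replicate 2, with a neutrophil sum of 63.5 CPM, had 0.141 CPM of Osm. Metrnl was high both where the macrophage sum was largest (63.2 CPM) and where the neutrophil sums were (47.1 and 39.4 CPM). The part of these cells in the differences was not tested. Of the other marker lists, adipocyte genes (6 of 7 lower), fibroblast genes (3 of 8 higher, 1 lower), satellite cell genes (3 of 7 higher), endothelial genes (2 of 7 lower) and myofibre genes (Myh2 of 10 lower) had calls in female sedentary pain, beside 19.6% of all genes higher and 13.9% lower. The adipocyte count was 2 without female control replicate 3, 1 without female control replicate 4, 1 without female sedentary pain replicate 2 and 0 without female sedentary pain replicate 4, and the fibroblast count of higher genes was 1 without the last. The endothelial count was 1 without female control replicate 2, 3 or 4 or female sedentary pain replicate 2, and 0 without female sedentary pain replicate 4. The 5 erythroid and 5 Schwann cell genes had none.

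**Figure D4:**
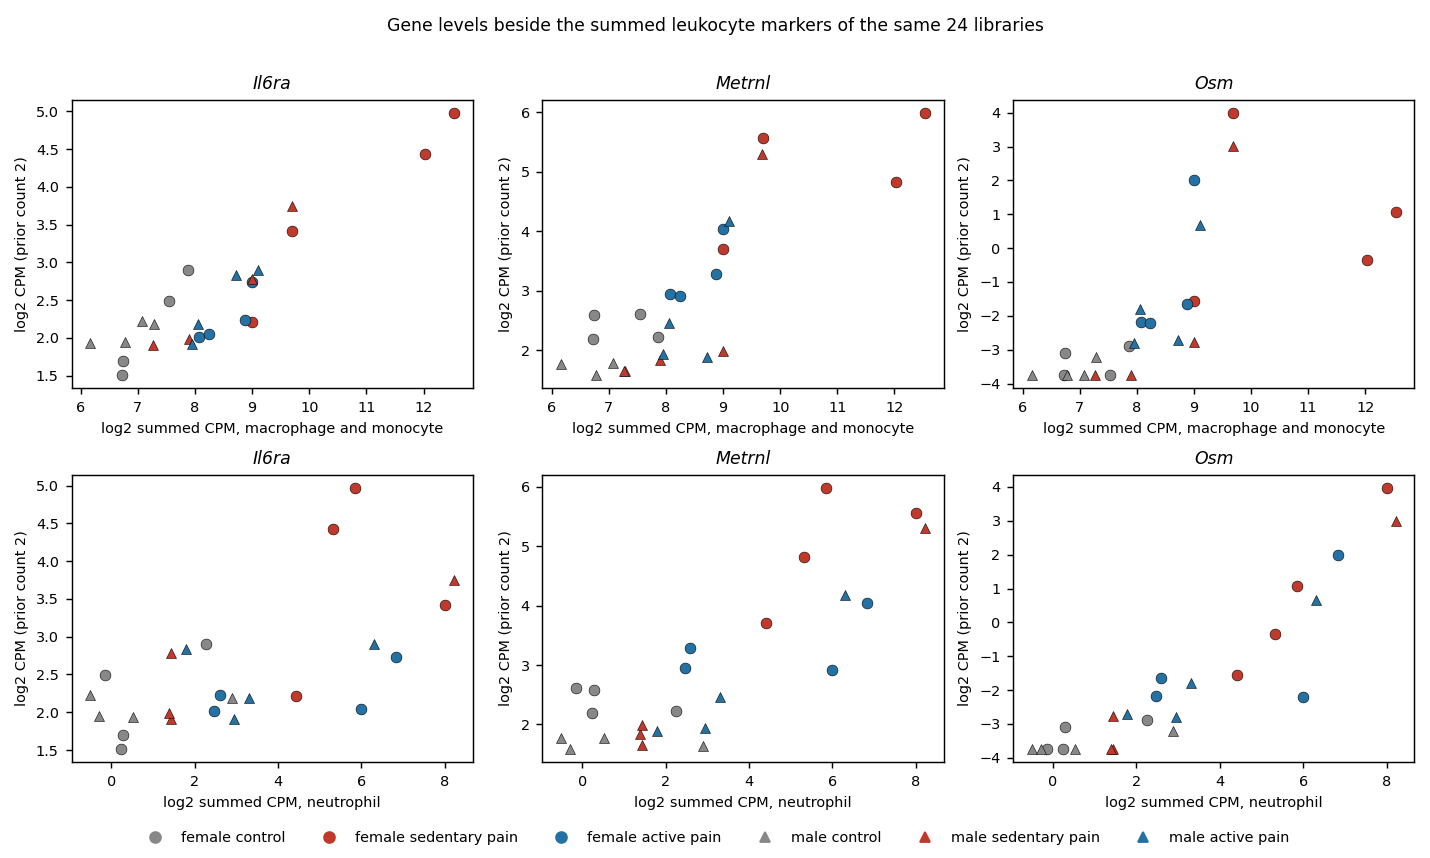
Log2 CPM of Il6ra, Metrnl and Osm in each of the 24 libraries against the log2 summed CPM of macrophage and monocyte markers (upper row) and of neutrophil markers (lower row), circles for females and triangles for males. The highest Il6ra points have the largest macrophage sums, 4175 and 5958 CPM, and the highest Osm points have neutrophil sums of 258.4 and 300.4 CPM.

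Over the 24 libraries Osm and Metrnl had a Pearson r of log2 CPM of 0.909, Il6 and Osm 0.893, Il6 and Metrnl 0.854 and Il6ra and Metrnl 0.798, while Il15 and Erfe were at -0.810 and Il6st and Metrnl at -0.780. These values describe libraries that share the groups, the sexes and the leukocyte marker levels above. The genes most like each of the 10, by Pearson r among genes whose log2 CPM averaged 1 or more, were Nup93 for Il6 (0.953), Rassf2 for Il6ra (0.978) and Adam8, a leukocyte metalloprotease, for Osm (0.960). They were Tlr4, a lipopolysaccharide receptor, for Osmr (0.826), Pik3ca for Il6st (0.946) and Gtpbp1 for Lif (0.689). For the myokines they were Ppp4c for Metrnl (0.979), Khdrbs3 for Fndc5 (0.931), Ak4, a mitochondrial adenylate kinase, for Il15 (0.958) and Creb3l1 for Erfe (0.835). The third gene in order for Fndc5 was Mb, the oxygen-binding muscle protein myoglobin (0.923).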

How the data were processed

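RNA sequencing libraries of the left gastrocnemius from 24 mice were analysed, 4 for each sex and condition. The values are raw read counts per Ensembl gene in tables deposited by the authors, with no normalization. The submitters' processing notes name HISAT2 2.1.0, Salmon 0.9.1, featureCounts and DESeq2 1.24.0 with the builds mm10 and GRCm38.p6, without their roles. Whether counting used strand is not given in the sources used here.

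The counts were tested with edgeR 4.0.16 in R 4.3.3: TMM scaling, genes kept by a minimum count of 10 by group, robust quasi-likelihood F tests and Benjamini-Hochberg adjustment at 0.05. Each sex was fitted on its 12 libraries, and the sexes were compared in a fit of all 24. Standard errors are the log2 fold change divided by the square root of F. Genes of the 10 that did not pass the filter had an exact two-sided permutation test over 70 arrangements, on log2 CPM with a prior count of 2, and intervals on their ratios of counts cover counting error only. The script was tested on simulated counts. RefSeq promoters (GRCm38.p6) and GENCODE M21 gave sequences and positions.

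The 10 genes, the gene lists and the marker lists were chosen with earlier results of these data known. From each list, up to 4 genes in each direction with the smallest p in female sedentary pain were named, and Socs1, Bmp4, Ilkap and the genes of a list that were not called were named after their values were seen. Alternatives were DESeq2 1.42.0, other scaling and filters, 1 surrogate variable (sva 3.50.0), a replicate block, a batch term from the library numbers, and fits without single libraries. The comparisons of the sexes within the pain groups and the fit without the 2 male libraries that stand apart were added after seeing the data. A gene of the signalling list is counted but not reported here by name.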

Additional observations from a re-analysis of the deposited data

Results flagged for a closer look

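In 11 of 59 groups of 4 libraries tested, 1 library lay far from the other 3 (Dixon's test at 95%). Chance flags about 1 in 20 groups when values are normal and independent. CPM of genes with few reads are not normal, and the same libraries recur across genes. The number of flags thus cannot be compared with that rate. Male sedentary pain replicate 1 stood apart for Il6 (3.35 CPM), Osm (7.96 CPM) and Metrnl (39.4 CPM), and male active pain replicate 2 for the same 3 genes, at 0.600, 1.52 and 18.0 CPM. Osm was also far above its group in female sedentary pain replicate 2 (15.7 CPM) and in female active pain replicate 3 (3.93 CPM), a library that stood apart for Erfe as well (0.809 CPM). In male controls the flags rest on 3 reads of Il6 in replicate 4 (0.0944 CPM) and 1 read of Osm in replicate 3 (0.0339 CPM). For Erfe in sedentary pain and Lif in active pain, every female pain library lay above the female control mean of log2 CPM and every male pain library below the male one. The female minus male difference, from the fit of all 24 libraries, was log2 1.58 for Erfe (edgeR interaction, adjusted p = 0.571) and 1.14 for Lif (adjusted p = 1), and neither passed.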

How the results depend on the processing

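In female sedentary pain against control 4 of the 8 genes tested were called, beside 4867 of 14511 genes. That number was 0 in replicates 1 and 2 alone (238 of all genes), 2 in replicates 3 and 4 alone (3456), 0 with 1 surrogate variable (18), 1 with only the 2 groups compared (2847), 5 with DESeq2 (Il6 added, 6109 of 17965), and 2 to 4 when 1 library was left out. The 3 calls in female active against sedentary pain (1730 of 14511 genes) became 0 without the low-count filter (174 of 26069), and 0 in replicates 1 and 2 alone, with 1 surrogate variable and with only the 2 groups compared, where no gene was called. They were 2 in the fit of all 24 libraries (2378 of 15103), 4 with DESeq2 (Il6 added, 3154 of 16449), and 0 to 3 when 1 library was left out. The cause of these changes was not tested, and the subsets also hold fewer libraries. With 1 surrogate variable Il6ra was at log2 -0.50 against control and 0.19 in active against sedentary pain. Control females against control males had 2 calls (Erfe, which entered through the males, and Il15), and 1 with a mean of at least 50 counts, in replicates 1 and 2 or in replicates 3 and 4, with 1 to 2 when 1 library was left out. Female against male sedentary pain had 2 calls, and 1 without the low-count filter, 1 with the batch term, 0 in replicates 1 and 2, 4 in replicates 3 and 4, 5 without the 2 male libraries that stand apart (Osm, which entered through the pain libraries, among them), and 1 to 5 when 1 library was left out. There Il6ra was at log2 -0.18 in replicates 1 and 2, and Il6 ranged from -0.74 to 4.84 when 1 library was left out, with the highest value without male sedentary pain replicate 1. The main sign of Il6ra was positive and that of Il6 negative. Female against male active pain had 1 call, 2 in replicates 3 and 4, and 1 to 2 when 1 library was left out. The sex difference of sedentary pain had 0 calls, 1 in replicates 3 and 4 and 1 without the 2 male libraries, and that of active against sedentary pain 0, 1 in replicates 3 and 4, and 0 to 4 when 1 library was left out. The number of calls was 0 in every setting run for female active pain against control, for the male comparisons and for the sex difference of active pain. The group mean of each gene was subtracted from its log2 CPM, and what remained was correlated across genes between same-numbered libraries. The mean correlation was 0.103 in females and 0.0065 in males, with 6 and 3 of 12 pairs over 0.1. Not every pair was over 0.1, so the numbers were not taken to pair the libraries, and what they share is not known. With the replicate block the calls were 4 in female sedentary pain against control, 2 between the female pain groups (Fndc5 was lost, adjusted p = 0.0504) and 1 in female against male sedentary pain (Il6ra was lost, adjusted p = 0.0967). At these depths Il6, Osm, Lif and Erfe had few reads in most libraries, which limits the precision of their differences.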
